A study of Rattus norvegicus with 6 samples.

Results

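Expression of the genes of tryptophan breakdown and NAD synthesis was examined in rat liver. The list held 10 genes, Acmsd, Tdo2, Ido2, Afmid, Kmo, Kynu, Haao, Qprt, Aadat and Nampt, out of 14506 distinct gene symbols named on the array. A gene was taken where the platform annotation gave a probe set that symbol and no other, which held for 8 of the 10 genes with 1 probe set each. Ido2 and Afmid are not analysed here. All 8 measured genes passed the filter on dim probe sets, a mean over the arrays above log2 5.14. Adult male Wistar rats, 30 in all, were given 1 of 6 diets for 5 weeks and were killed 2 h after a meal of set energy. For each diet, equal amounts of liver RNA from 5 rats were combined and hybridised to 1 array, so no diet had a replicate pool and the number of arrays limits the precision. The diets were high protein with high sucrose and high fat (HP-HS-HF), normal protein with high sucrose and high fat (NP-HS-HF), high protein with high sucrose and low fat (HP-HS), normal protein with high sucrose and low fat (NP-HS), high protein with low fat (HP) and normal protein with low fat (NP). All rats had eaten the normal protein diet during 10 days of adaptation. The low fat background without high sucrose is called LF, and the terms HP and NP livers cover all 3 backgrounds. What the diets were made of is not analysed here. The source fields speak of mice, whereas the organism field and the protocol give rats.

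Hepatocytes break down most of the body's tryptophan. Tdo2 and Ido2 encode dioxygenases that open its indole ring, and Afmid removes the formyl group. Kmo and Kynu lead from kynurenine to 3-hydroxyanthranilate, which Haao oxidises. The product is an unstable semialdehyde at a branch point. ACMSD, the enzyme made from Acmsd, decarboxylates it and sends the carbon toward complete oxidation, whereas the portion that escapes ACMSD closes spontaneously to quinolinate, which QPRT turns into a precursor of NAD. Aadat encodes an aminotransferase that makes kynurenate, a side product, and Nampt encodes the enzyme that recycles nicotinamide into NAD.

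Of the branch point and the step before it, promoter sequence is shown for Qprt, the measured gene with a sequence whose HP and NP livers did not overlap, and for Haao, the gene with the smallest range over the 6 arrays. Each run is the 250 bases before the RefSeq gene start in the GRCr8 build, 5′ to 3′ on the gene's strand, with matches to the motifs searched in capitals. Qprt lies at chr1:191164007-191164256 (minus strand) and Haao at chr6:16598075-16598324 (plus strand).
Qprt: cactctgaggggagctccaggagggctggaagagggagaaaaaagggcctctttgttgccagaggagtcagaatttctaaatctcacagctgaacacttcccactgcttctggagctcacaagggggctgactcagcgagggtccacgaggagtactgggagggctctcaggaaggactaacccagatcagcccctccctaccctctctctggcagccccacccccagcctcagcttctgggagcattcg
Haao: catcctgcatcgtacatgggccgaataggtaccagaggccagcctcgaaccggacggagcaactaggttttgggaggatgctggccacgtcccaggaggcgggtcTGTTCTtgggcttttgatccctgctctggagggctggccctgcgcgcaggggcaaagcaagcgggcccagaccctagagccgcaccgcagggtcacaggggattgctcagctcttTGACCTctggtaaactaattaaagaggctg
The motifs, searched on both strands, were the TATA box TATAAA, the CCAAT box, the nuclear receptor half-site AGGTCA, the E box CACGTG, the cAMP response half-site TGACG, the glucocorticoid receptor half-site AGAACA and the HNF1 half-site GTTAAT. Qprt had no match in this window. Haao had AGGTCA on its minus strand 30 to 25 bases before the start and AGAACA on its minus strand 145 to 140 bases before the start. AGGTCA occurred in 14.1 percent and AGAACA in 17.5 percent of 33469 windows of the same length. Of the 10 listed genes, 7 had a sequence in the table, and Acmsd, Nampt and Ido2 did not.

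Between high and normal protein livers, Acmsd had the largest difference of the 8 measured genes, 1.95-fold higher in the fit over all arrays, and it did not pass the test after adjustment over all probe sets. Qprt was 1.16-fold and Nampt 1.18-fold lower in that fit, also short of the test. The differences of Tdo2, Kmo, Kynu, Aadat and Haao had intervals that included 0. The test was limma on log2 values with terms for protein and background, adjusted by Benjamini-Hochberg over 20450 probe sets. Its error starts from how a gene's HP minus NP difference varies between the 3 backgrounds. That variance is then drawn toward one common to all probe sets tested, which carries more weight (4.37 prior against 2 residual degrees of freedom). Of the 8 genes, 0 passed at an adjusted p under 0.05, where 0.0440 percent of all probe sets did (9 of 20450). At an unadjusted p under 0.05 there were 1 higher and 2 lower, 3 of 8 genes, against 8.71 percent of all probe sets (4.68 percent higher and 4.03 percent lower). The median fitted difference of the 8 genes was 0.02, beside -0.001 over all probe sets tested. Only 1 pool stands behind each diet. These p-values therefore set a difference against its variation between backgrounds, drawn toward the common variance, and not against the spread between rats.

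**Figure D1:**
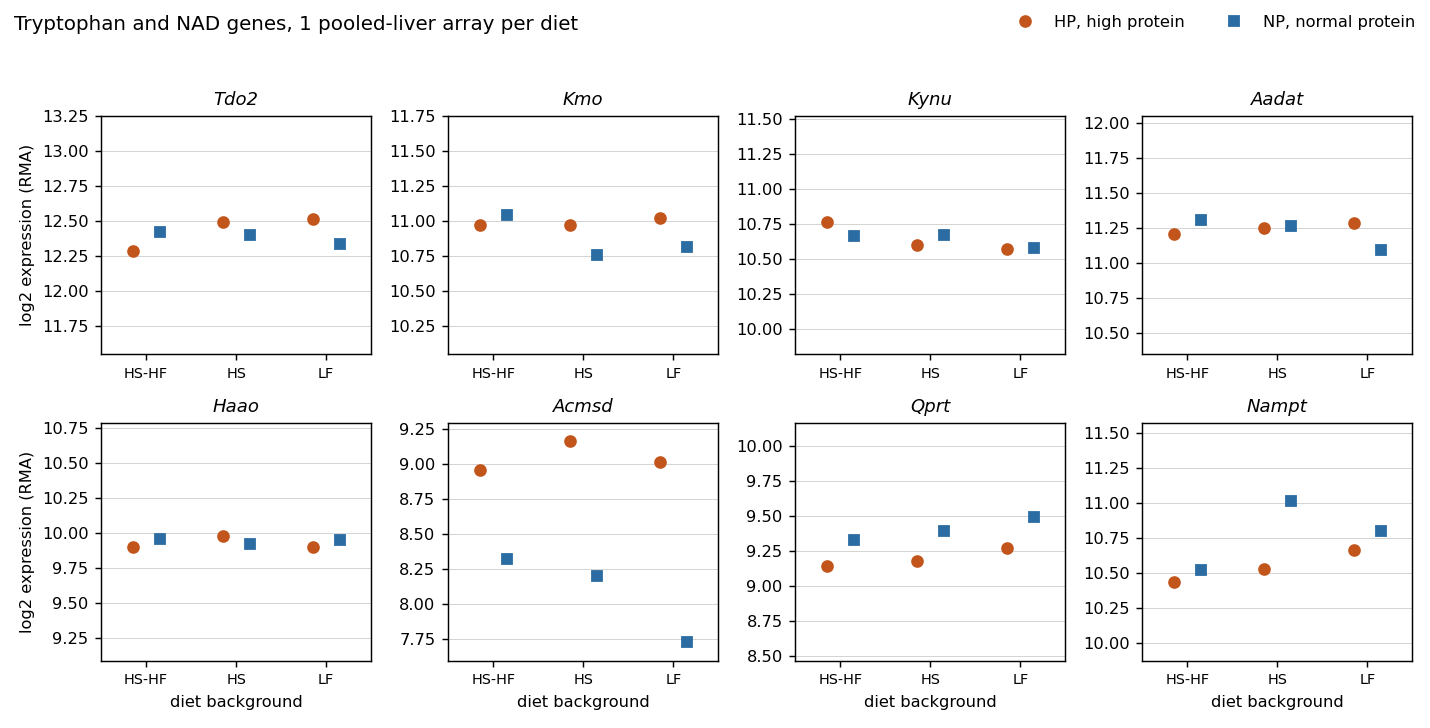
Expression of the 8 measured genes, 1 array per point, with the diet background on the x axis and log2 RMA expression on the y axis, which spans the same width in every panel. The HP points of Acmsd (8.96 to 9.16) all lie above its NP points (7.73 to 8.32), and those of Qprt all lie below.

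Acmsd, the decarboxylase of the branch point (probe set 10767290), had log2 expression of 8.96, 9.16 and 9.02 in HP-HS-HF, HP-HS and HP livers, against 8.32, 8.20 and 7.73 in NP-HS-HF, NP-HS and NP livers. Every HP liver pool lay above every NP liver pool, and the NP pool of the low fat diet was the lowest of all. The HP pools lay within a narrower range (mean 9.05 ± 0.105 SD, n = 3) than the NP pools (mean 8.08 ± 0.314 SD, n = 3). Each SD is between the 3 backgrounds, with 1 pool each, and not between replicates. High over normal protein was 1.55-fold on HS-HF, 1.95-fold on HS and 2.44-fold on LF, each from 1 array against 1. Acmsd was the 1 gene of the 8 to be higher by 1.5-fold or more in all 3 backgrounds, as 0.112 percent of all probe sets were (23 of 20450). The fitted difference was 0.96 ± 0.123 SE on the log2 scale (95 percent interval 0.67 to 1.26, adjusted p = 0.0916 by limma). It ranked 38 of 20450 by p-value. The call turned on 2 settings: with an intensity trend in the variance the adjusted p was 0.0441, and without the HS-HF background, where the difference was smallest, it was 0.0150 with a difference of 1.13. Without the LF background the adjusted p was 0.317, and without the HS background it was 0.332. With an ordinary t statistic, which uses the variance of Acmsd alone, the SE was 0.188 and the adjusted p was 0.758.

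The 6 arrays had medians within 0.0325 of each other and pairwise correlations of 0.9949 to 0.9964, and no array stood apart. All 8 hepatocyte markers were bright, at log2 11.9 to 13.9. Below the filter were 4 of 6 measured lymphocyte and neutrophil markers (Cd3e, Ms4a1, S100a8 and S100a9, but not Ptprc and Nkg7), 1 of 4 kidney tubule markers (Umod, but not Slc34a1, Lrp2 and Aqp2) and, of the adipose and pancreas markers, Prss1 and Cpa1, but not Adipoq, Plin1, Lep and Cela1. Macrophage markers lay higher at high protein: 11 of 11 had a fitted difference above 0 (median 0.21), 8 of them at an unadjusted p under 0.05, beside 4.68 percent of all probe sets, and 0 past the limma test (lowest adjusted p = 0.287). Their summed level was log2 12.06 to 12.26 in HP livers and 11.89 to 12.03 in NP livers, and none was below the filter. That of the hepatocyte markers was 16.23 to 16.27 in HP livers and 16.25 to 16.28 in NP livers. The bile duct markers too had fitted differences above 0 (4 of 4 measured, summed level 8.12 to 8.22 in HP livers and 7.92 to 8.10 in NP livers). So had 3 of 3 endothelial (0.03 to 0.10) and 3 of 3 kidney tubule markers above the filter (0.001 to 0.14). A difference above 0 in all 3 backgrounds was found for 0 of 3 endothelial and 0 of 3 kidney tubule markers. It was found for 10 of 11 macrophage markers, for 2 of 4 bile duct markers and for 14.6 percent of all probe sets. Ptprc, a marker of all leukocytes, lay between 7.23 and 7.28 in HP livers and between 6.99 and 7.10 in NP livers, without overlap (unadjusted p = 0.0112, adjusted p = 0.399 by limma). No overlap in either direction was found for 14.9 percent of all probe sets. It was found for 6 of 11 macrophage and 2 of 4 bile duct markers, with HP above. With HP below it was found for 2 of 8 hepatocyte markers. Of the 6 measured lymphocyte and neutrophil markers, Ptprc among them, 2 had a mean HP minus NP difference above 0 (median -0.07). The part of these cells in the Acmsd difference was not tested. In whole liver, fewer cells of a type and less RNA per cell cannot be told apart.

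Qprt, the phosphoribosyltransferase that uses quinolinate (probe set 10725947), had log2 expression of 9.14, 9.17 and 9.27 in HP-HS-HF, HP-HS and HP livers, against 9.33, 9.39 and 9.49 in NP-HS-HF, NP-HS and NP livers. All HP pools lay below all NP pools. Within a background the difference was small and even, at -0.19 on HS-HF, -0.22 on HS and -0.22 on LF. In the fit it was -0.21 ± 0.064 SE (95 percent interval -0.37 to -0.06, unadjusted p = 0.0145, adjusted p = 0.423 by limma). At each protein level the HS-HF pool was the lowest and the LF pool the highest, with steps of 0.10 or less between neighbours in that order. Acmsd and Qprt were the genes of the 8 whose HP and NP livers did not overlap, 2 of 8, where 14.9 percent of all probe sets had no overlap in either direction (7.35 percent with HP above and 7.58 percent with HP below). With 3 arrays against 3 the smallest exact two-sided p is 0.10, so no test was made of that separation.

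Nampt, of the salvage route (probe set 10884162), had log2 expression of 10.43, 10.53 and 10.66 in HP-HS-HF, HP-HS and HP livers, against 10.52, 11.01 and 10.80 in NP-HS-HF, NP-HS and NP livers. The groups overlapped through the NP-HS-HF pool, and the NP-HS pool was the highest. The difference was negative in all 3 backgrounds, at -0.09 on HS-HF, -0.48 on HS and -0.14 on LF. Differences below 0 in all 3 backgrounds were found for Qprt and Nampt, 2 of 8 genes, and for 14.9 percent of all probe sets. A difference above 0 in all 3 was found for Acmsd, 1 of 8 genes, and for 14.6 percent of all probe sets. The fitted difference of Nampt was -0.24 ± 0.094 SE (unadjusted p = 0.0430, adjusted p = 0.551 by limma), and it was -0.11 without the HS background, -0.29 without LF and -0.31 without HS-HF.

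**Figure D2:**
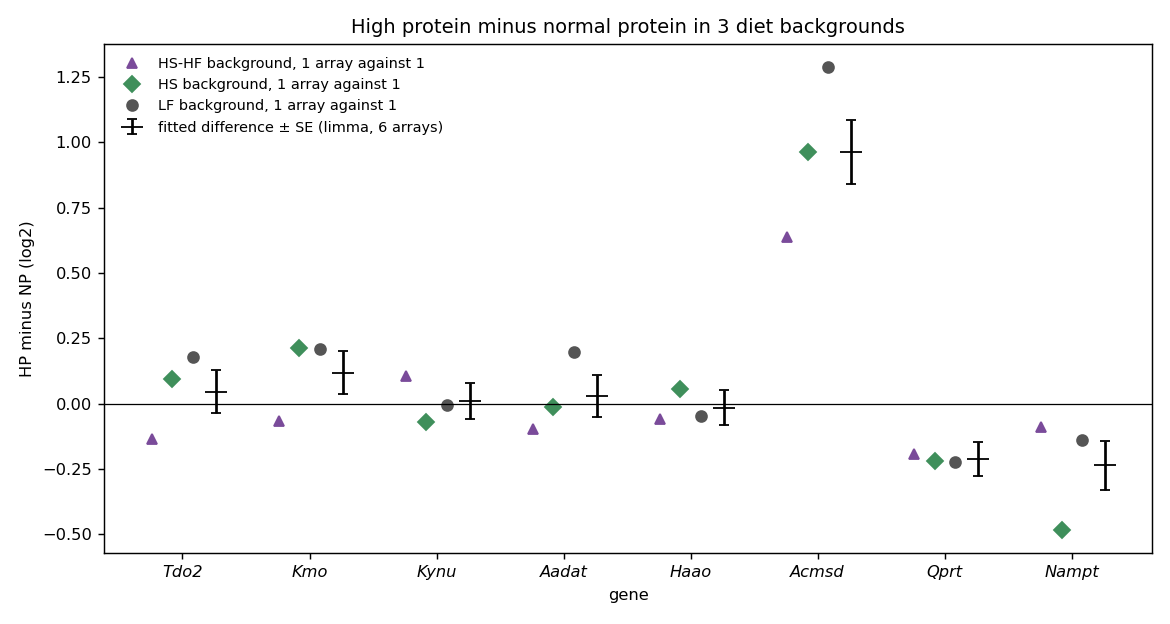
HP minus NP on the log2 scale for each gene, with 1 point per background (1 array against 1) and the limma fit ± SE over 6 arrays as a bar. Acmsd lies between 0.64 and 1.29, Qprt between -0.22 and -0.19, and 5 genes have points on both sides of 0.

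The steps from tryptophan to the branch point varied less. Tdo2, the dioxygenase of the first step (probe set 10823890), had log2 expression of 12.29, 12.50 and 12.51 in HP-HS-HF, HP-HS and HP livers, against 12.42, 12.40 and 12.33 in NP-HS-HF, NP-HS and NP livers. HP was the lower on HS-HF and the higher in the other backgrounds, and the groups overlapped. The fitted difference was 0.05 ± 0.083 SE (95 percent interval -0.15 to 0.24). Kmo, the kynurenine hydroxylase (probe set 10765937), had log2 expression of 10.98, 10.97 and 11.02 in HP-HS-HF, HP-HS and HP livers, against 11.04, 10.76 and 10.82 in NP-HS-HF, NP-HS and NP livers. The HP pools of Kmo were nearly level and the NP-HS-HF pool exceeded them, so the groups overlapped. Kmo had a fitted difference of 0.12 ± 0.082 SE (95 percent interval -0.08 to 0.32), with 0.21 without the HS-HF background, 0.071 without HS and 0.073 without LF.

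Kynu, the kynureninase (probe set 10836019), lay between 10.57 and 10.77 in HP livers and between 10.58 and 10.67 in NP livers, with a fitted difference of 0.01 ± 0.070 SE. Haao, which oxidises 3-hydroxyanthranilate (probe set 10888138), lay between 9.90 and 9.98 in HP livers and between 9.92 and 9.96 in NP livers. Its range of 0.08 over the 6 arrays was the smallest of the 8 genes. The fitted difference of Haao was -0.02 ± 0.067 SE, with a 95 percent interval of -0.18 to 0.14. Aadat, of the kynurenate branch (probe set 10791478), lay between 11.21 and 11.29 in HP livers and between 11.09 and 11.31 in NP livers, with a fitted difference of 0.03 ± 0.080 SE. Kynu, Haao and Aadat overlapped between the protein levels and had HP minus NP differences of either sign among the backgrounds.

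Between diet backgrounds at equal protein, the fitted differences of Acmsd were 0.31 for HS against LF, -0.04 for HS-HF against HS and 0.27 for HS-HF against LF. Nampt was 1.23-fold lower on HS-HF than on HS, and 0 of the 8 genes passed the limma test for HS against LF, HS-HF against HS or HS-HF against LF. The lowest adjusted p among the 8 genes was 1.0, 0.993 and 0.959 in that order. Over all probe sets 0 percent passed each of these comparisons, and 3.02, 4.95 and 5.18 percent had an unadjusted p under 0.05. Of the 8 genes, Nampt had an unadjusted p under 0.05 for HS-HF against HS (-0.29 ± 0.115 SE, unadjusted p = 0.0410 by limma), as 2.45 percent of all probe sets did downward, and 0 had one for the other comparisons. This Nampt difference was -0.10 at high and -0.49 at normal protein, and its fitted value lay between -0.48 and -0.11 with 1 array left out (-0.11 without NP-HS, -0.18 without NP-HS-HF and -0.48 without HP-HS). Of the macrophage markers, 10 of 11 had a fitted difference below 0 for HS-HF against HS (median -0.19), 4 of them at an unadjusted p under 0.05, and their part in the Nampt values was not tested. For Acmsd on HS against LF the SE was 0.151 (unadjusted p = 0.0842 by limma), from differences of 0.15 at high and 0.47 at normal protein, and the fitted value was 0.06 without the NP array and 0.55 without the HP array of the LF background. On HS-HF against LF, Acmsd differed by -0.06 at high protein and by 0.59 at normal protein. The difference at normal protein is past 1.5-fold, as it was for 1.16 percent of all probe sets. No other gene of the 8 reached 1.5-fold in any of the 6 differences between backgrounds within a protein level. Of all probe sets, 0.890 percent did for HS against LF at high and 0.866 percent at normal protein, 1.27 and 0.934 percent for HS-HF against HS, and 1.19 percent for HS-HF against LF at high protein. Whether a background difference depends on the protein level could not be tested, since that model leaves no residual degrees of freedom.

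**Figure D3:**
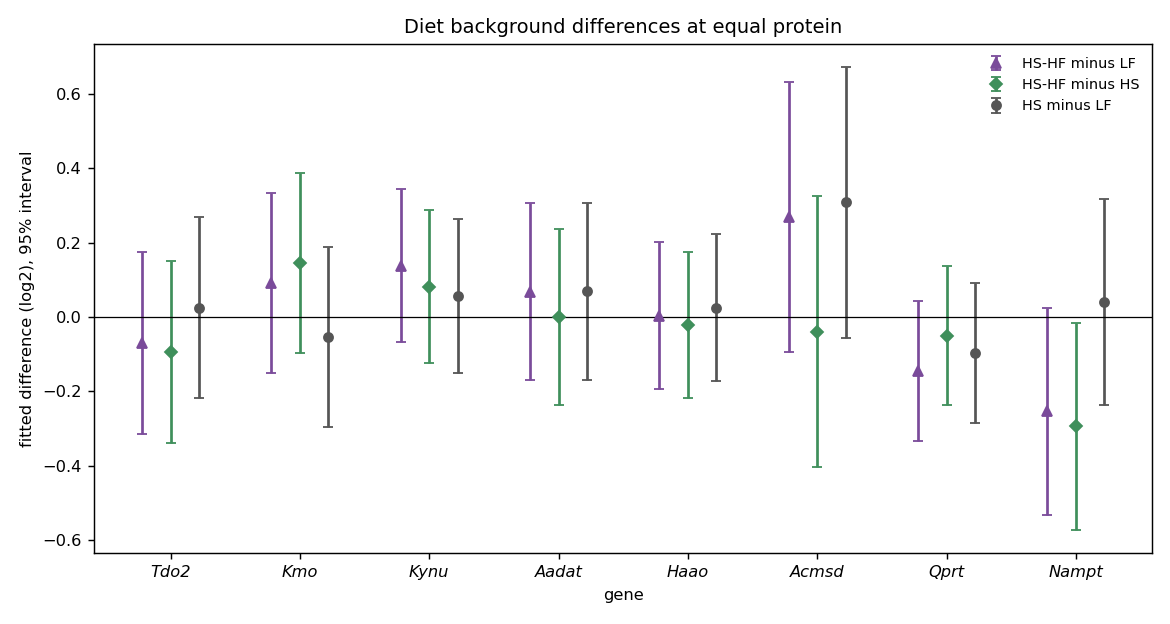
Fitted differences between diet backgrounds at equal protein for the 8 genes (log2, y axis), with 95 percent intervals from limma over 6 arrays. Intervals include 0 for every gene and comparison except Nampt on HS-HF against HS (-0.57 to -0.02).

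Other genes of tryptophan and NAD metabolism were read from a list of 40, of which 34 were measured and 32 passed the filter. For high against normal protein 0 of the 32 passed the limma test, 3 higher and 1 lower had an unadjusted p under 0.05 (8.71 percent of all probe sets), and the median fitted difference was 0.003. Their HP and NP livers did not overlap for 3 genes upward and 2 downward, 5 of 32 against 14.9 percent of all probe sets. The 3 upward were Inmt, Nnmt and Slc16a10. Of the downward ones, named after their values were seen, Nnt encodes the mitochondrial transhydrogenase of NAD and Nadk2 the mitochondrial NAD kinase. Between diet backgrounds 0 of the 32 passed the limma test. Inmt alone had an unadjusted p under 0.05, higher on HS-HF than on HS and than on LF. For HS-HF against HS that was 1 of 32, beside 4.95 percent of all probe sets. For HS-HF against LF it was 1 of 32, beside 5.18 percent, and for HS against LF 0 of 32, beside 3.02 percent.

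Nnmt, the methyltransferase that removes nicotinamide from the salvage route (probe set 10917112), had log2 expression of 10.42, 10.63 and 10.51 in HP-HS-HF, HP-HS and HP livers, against 9.89, 10.00 and 10.09 in NP-HS-HF, NP-HS and NP livers. The HP pools all lay above the NP pools, with a fitted difference of 0.53 ± 0.072 SE (adjusted p = 0.110 by limma; 0.0390 with an intensity trend, 0.694 with an ordinary t statistic and 0.130 to 0.415 with 1 background left out). Inmt, a methyltransferase of indole amines such as tryptamine (probe set 10862694), had log2 expression of 10.89, 10.74 and 10.54 in HP-HS-HF, HP-HS and HP livers, against 10.45, 10.14 and 9.99 in NP-HS-HF, NP-HS and NP livers. Its HP pools too lay above its NP pools, and at each protein level the order was HS-HF, HS, LF from high to low. The fitted difference of Inmt for protein was 0.53 ± 0.069 SE (adjusted p = 0.0941 by limma; 0.0351 with an intensity trend, 0.274 with protein level alone, 0.635 with an ordinary t statistic and 0.0803 to 0.399 with 1 background left out). For HS-HF against LF it was 0.40 ± 0.084 SE (unadjusted p = 0.00261, adjusted p = 0.783 by limma).

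Slc16a10, a transporter of aromatic amino acids (probe set 10833635), had log2 expression of 10.06, 10.50 and 10.49 in HP-HS-HF, HP-HS and HP livers, against 9.79, 9.50 and 9.68 in NP-HS-HF, NP-HS and NP livers. The groups did not overlap, and the HP-HS-HF pool stood nearest to the NP pools. The fitted difference was 0.70 ± 0.139 SE (adjusted p = 0.217 by limma), with 0.91 (adjusted p = 0.0197) without the HS-HF background, 0.54 (adjusted p = 0.632) without HS and 0.64 (adjusted p = 0.443) without LF. Ddc, the aromatic amino acid decarboxylase, lay between 8.82 and 9.28 in HP livers and between 9.13 and 9.37 in NP livers. Sarm1, which cleaves NAD, lay between 5.25 and 5.54 in HP livers and between 5.17 and 5.43 in NP livers. Both genes overlapped between protein levels. The range of Sarm1 over the arrays was 0.37, and the genes of the list not named here had smaller ones.

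**Figure D4:**
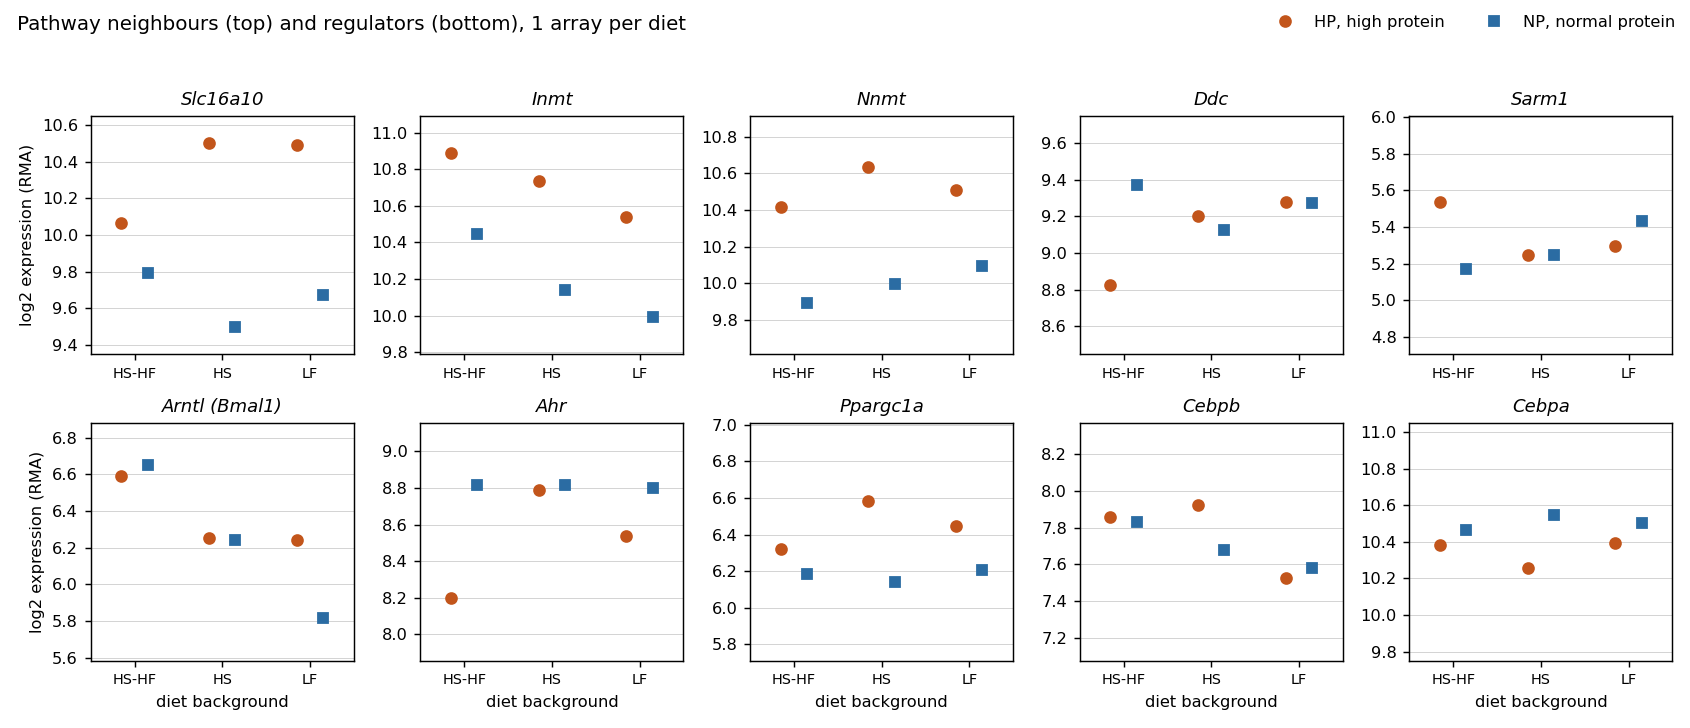
Log2 RMA expression by diet background for the 5 pathway genes (top row) and 5 regulators (bottom row) with the largest ranges, 1 array per point and panels of equal height. Slc16a10, Inmt, Nnmt and Ppargc1a have all HP points above all NP points, and Ahr and Cebpa have all HP points below.

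Of 10 regulators, 9 were measured and passed the filter, and 0 passed the limma test for any effect (at an unadjusted p under 0.05, 1 higher and 1 lower for protein, 1 higher for HS against LF, 1 higher for HS-HF against HS and 2 higher for HS-HF against LF). Over all probe sets the shares at that unadjusted p were 8.71, 3.02, 4.95 and 5.18 percent in the same order. HP and NP livers did not overlap for 4 of the 9 regulators, beside 14.9 percent of all probe sets: Ppargc1a with HP above, and Ahr, Cebpa and Ppara with HP below, of which Ppara is named after its values were seen. The margin was very small for Ppara (10.875 in the HP-HS liver, 10.879 in the NP-HS liver) and for Ahr (8.788 in the HP-HS liver, 8.797 in the NP liver). Ppargc1a, a coactivator of fasting metabolism, lay at log2 6.32, 6.58 and 6.44 in HP-HS-HF, HP-HS and HP livers, against 6.18, 6.14 and 6.21 in NP-HS-HF, NP-HS and NP livers. Its groups did not overlap, and the fitted difference was 0.27 ± 0.081 SE (adjusted p = 0.417 by limma), and 0.19 to 0.34 with 1 background left out. Ahr, the aryl hydrocarbon receptor that kynurenine and other tryptophan products can bind, lay at log2 8.20, 8.79 and 8.54 in HP-HS-HF, HP-HS and HP livers, against 8.82, 8.82 and 8.80 in NP-HS-HF, NP-HS and NP livers. The NP pools of Ahr were level and the HP-HS-HF pool was the lowest, with a fitted difference of -0.30 ± 0.115 SE (adjusted p = 0.531 by limma). Without the HS-HF background the Ahr difference was -0.14, and without HS it was -0.44. Arntl (Bmal1), a clock factor, had the widest range of the regulators, 0.83, with 6.65 in the NP-HS-HF liver against 5.82 in the NP liver, and a fitted difference of 0.59 ± 0.129 SE for HS-HF against LF (adjusted p = 0.800 by limma), which was 0.37 without the NP array and 0.82 without the HP array of the LF background. Cebpb lay between 7.52 and 7.92 and Cebpa between 10.26 and 10.55 over the 6 arrays.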

How the data were processed

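Liver RNA of 6 diets, 1 pool of 5 rats each, was measured on Affymetrix whole-transcript arrays. The deposited values are log2 expression per probe set, summarised by the authors with RMA, per the submitters' processing notes; no source used here gives its settings or a genome build, and the log2 scale was read from their range of 2.40 to 13.92. Of 29214 probe sets, 15310 had 1 gene symbol in the platform annotation, 323 had several and 13581 were not listed, and no gene was named from the last 2 kinds. Symbols were updated through Entrez numbers where the RefSeq table held them (15279).

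Probe sets with a mean above the 30th percentile (20450) entered a linear model of protein level and background over all 6 arrays (limma 3.58.1, R 4.3.3). The fit has 2 residual degrees of freedom and a prior of 4.37. The fit was run on simulated data with independent errors and purely additive effects. Those data cannot show how it behaves where a protein difference varies between backgrounds. Differences between 2 arrays are values without a test. The alternatives changed the filter, the scaling, the variance model, the terms and the arrays.

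The listed genes, the other gene lists, the filter and the tests were chosen with earlier results of these data known, and the motifs after the values were seen. All listed genes were named, and of each other list those past the test and the 5 with the largest range over the arrays. For likeness to Acmsd the 5 highest and 3 lowest correlations were taken.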

Additional observations from a re-analysis of the deposited data

Results flagged for a closer look

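Slc16a10 differed between HS-HF and HS in opposite directions at the 2 protein levels, by -0.44 at high protein (log2 10.06 in the HP-HS-HF liver against 10.50 in the HP-HS liver) and by 0.30 at normal protein (9.79 in the NP-HS-HF liver against 9.50 in the NP-HS liver). Both differences exceed 1.2-fold and they lie 0.733 apart on the log2 scale. This difference was not tested, since each value is from 1 array. Such opposite differences were sought only among the measured listed genes and the neighbours and regulators named for their large ranges. The share of all probe sets with them was not computed.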

How the results depend on the processing

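Of 266 recomputed values of single genes, 251 kept their direction and their side of the threshold. Most lay far above the threshold in the main fit and could hardly change side, and the protein values with an array left out repeat in pairs. That count is therefore no measure of stability. For protein, the count of the 8 genes past the test was 0 and became 1, Acmsd, with an intensity trend, and 0 to 1 when an array was left out. Acmsd lay between 0.80 and 1.13 over all alternatives (adjusted p 0.0150 to 0.758). The count of the 32 pathway neighbours became 2 with the trend and 0 to 1 with an array left out. Over all probe sets the protein count of 9 was 3 with no filter, 16 with median centring, 51 with the trend, 0 with an ordinary t statistic, which has 2 residual degrees of freedom, and 0 to 48 with an array left out (48 without either HS-HF array, 0 without any other). For HS against LF it was 0, and 3 with the 4 arrays of the contrast; with an array left out it was 0 to 3 (the 3 without either HS-HF array), for HS-HF against HS 0 to 17 (the 17 without NP-HS-HF) and for HS-HF against LF 0 to 12 (the 12 without NP-HS-HF). Differences that changed sign with an array left out were near 0: Tdo2 (-0.0219 to 0.137), Aadat (-0.0556 to 0.0911), Kynu (-0.0392 to 0.0495) and Haao (-0.0529 to 0.00528). The causes of these changes were not tested. Slc16a10 without the HS-HF background was the neighbour that passed with an array left out. With an array left out for protein, the other array of its background no longer informs the fit, so results are alike for both. Each of the 8 genes had 1 probe set, so agreement between probe sets of a gene could not be examined. The protein comparison pairs the HP and NP arrays of a background through the background term, and without that term 0 of the 8 genes passed. The labels carry no replicate numbers to pair by. The number of arrays limits these comparisons, and all 8 genes passed every filter used.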

Other observations

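The genes whose pattern over the 6 arrays was most like that of Acmsd were sought among 479 named genes with a range of at least 1.5-fold, with Pearson's r as the measure. They were Oat, the ornithine aminotransferase (r = 0.988), Mfsd2a, a lysophosphatidylcholine transporter (0.976), Slc25a21, a mitochondrial carrier of oxodicarboxylates (0.965), the cadherin Cdh17 (0.963) and the metallothionein Mt1 (0.962). Oat had log2 expression of 11.13, 11.13 and 11.13 in HP-HS-HF, HP-HS and HP livers, against 10.85, 10.70 and 10.54 in NP-HS-HF, NP-HS and NP livers. Its HP pools were level, and its NP pools stood in the same order as those of Acmsd. Most unlike it were the hormone gene Fgf21 (r = -0.992), the kinase gene Prkcz (-0.990) and Gins4, of DNA replication (-0.943). Fgf21 had log2 expression of 6.50, 6.37 and 6.41 in HP-HS-HF, HP-HS and HP livers, against 6.73, 6.89 and 7.13 in NP-HS-HF, NP-HS and NP livers. These values of r describe 6 points that share arrays, and they include the split between HP and NP livers. By limma 0 of these 8 genes passed for protein (adjusted p between 0.0756 and 0.342).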
